A study of Mus musculus with 6 samples.

Results

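The genes described are 9 collagens that build the matrix next to cells or decorate the surface of larger fibrils. They are the 3 main chains of collagen VI (Col6a1, Col6a2, Col6a3), the short-chain collagen Col8a1, the fibril-associated collagens Col12a1, Col14a1 and Col16a1, and the multiplexins Col15a1 and Col18a1. They were taken by symbol from a table of 46095 gene symbols, and all 9 had an entry and passed the filter on low counts. Read counts were measured by RNA sequencing in cultured primary mouse cells from the nucleus pulposus, the gel-like centre of each intervertebral disc, at passage 2 from 8-week-old mice labelled male. The groups were wild type (WT), Chsy3 heterozygous (HET) and Chsy3 knockout (KO), with 2 libraries each. Chsy3 encodes a chondroitin sulfate synthase. No treatment is named for any group, and the altered part of Chsy3, the strain and any pooling of animals are not stated in the labels. Nothing says either whether the 2 libraries of a genotype are separate animals, so each p-value reflects only how far these libraries spread, which may be technical. The series title names a knockdown and the sample labels name genotypes, which are followed here.

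Collagen VI is a heterotrimer whose tetramers are joined into beaded microfilaments. It is the hallmark of the pericellular matrix, the thin shell around chondrocytes and disc cells, where it binds decorin, biglycan and the cell-surface proteoglycan NG2. Collagens XII and XIV are FACIT collagens (fibril-associated collagens with interrupted triple helices), which sit on the surface of collagen I fibrils, and collagen XVI belongs to the same group. Collagen VIII forms open networks from short chains. Collagens XV and XVIII lie at the outer face of basement membranes, end in an endostatin domain, and carry glycosaminoglycan chains, mainly chondroitin sulfate on collagen XV and heparan sulfate on collagen XVIII.

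Total counts lay between 29622117 and 33899611 per library. Chsy3 stood at 8.35 and 8.36 CPM (counts divided by the scaled library size) in WT, 5.79 and 6.20 in HET, and 3.58 and 2.23 in KO, so the transcript was reduced and not absent in KO. The notochord genes T, Noto, Shh and Foxa2 had 0 counts in all 6 libraries and the aggrecan gene Acan reached at most 0.235 CPM. Of the other markers of this tissue, Cd24a stood at 6.38 to 13.6 and Cdh2 at 50.3 to 57.9 CPM over the 6 libraries. Sox9 stood at 15.3 and 16.7 CPM in WT, 56.8 and 58.2 in HET, and 21.5 and 23.9 in KO. Col2a1 was at 23.0 and 22.6 CPM in WT, 6.17 and 5.13 in HET, and 21.7 and 20.9 in KO. Krt19 was at 14.9 and 16.6 CPM in WT, 1.11 and 0.409 in HET, and 2.61 and 2.76 in KO. Lgals3 stood at 336 to 387 CPM in WT and HET and at 1008 and 989 in KO. The 15 nucleus pulposus and notochord markers, of which 8 passed the filter on low counts, summed to 471 and 464 CPM in WT, 517 and 521 in HET, and 1118 and 1099 in KO, most of it Lgals3, which macrophages also express. Against WT, 2 of these 8 were higher and 2 lower in KO, and 3 were higher and 3 lower in HET. Over all tested genes 19.2% were higher and 18.9% lower in KO, and 19.2% higher and 19.7% lower in HET. The Y-linked genes Ddx3y, Uty, Kdm5d and Eif2s3y had 0 counts in both HET libraries and were present in WT and KO. Xist stood at 664 and 654 CPM in WT, 1080 and 1072 in HET, and 651 and 654 in KO. These values do not match the label male for any genotype. Genotype and this sex-linked difference cannot be told apart in any comparison with HET. Libraries of a genotype differed from each other by more than sampling noise (chi-square per degree of freedom 3.61 to 3.74), so none was treated as a duplicate.

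Transcripts of some of these collagens were abundant in the cultures. Col12a1, Col6a1, Col6a2, Col8a1 and Col6a3 were among the most abundant transcripts, at or above percentile 98.6 of the mean level of 16061 tested genes, whereas Col18a1, Col16a1, Col14a1 and Col15a1 stood at percentiles 86.2, 77.9, 65.3 and 23.2. Together the 9 genes took 0.583% and 0.598% of all counts in WT, 0.650% and 0.643% in HET, and 0.360% and 0.359% in KO. Per kilobase of the longest coding transcript, the WT means were 226 CPM for Col6a1, 217 for Col6a2, 198 for Col8a1, 194 for Col12a1, 64.7 for Col6a3, 16.0 for Col18a1, 12.8 for Col16a1, 6.17 for Col14a1 and 0.637 for Col15a1. On this scale Col12a1 led in HET at 292 CPM per kilobase, above Col6a1 at 245, and Col6a1 led in KO at 166, above Col6a2 at 145 and Col12a1 at 119. The order of these abundant genes depends on the length used. Per kilobase of all annotated exons, Col6a1 led in every genotype, at 212 CPM in WT, 229 in HET and 156 in KO. On that scale Col12a1 came second, at 147, 221 and 90.3 CPM, and Col6a2 stood at 103, 98.1 and 68.9.

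**Figure D1:**
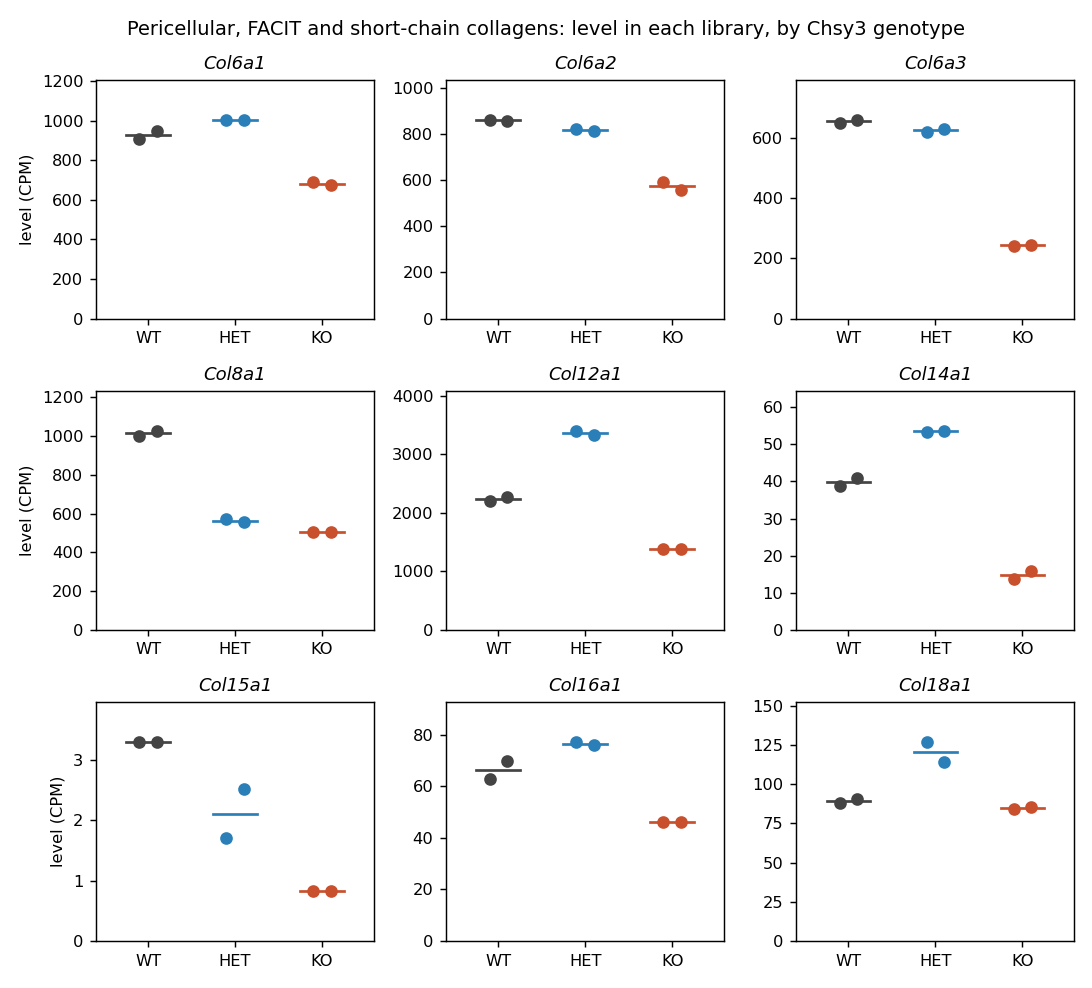
Level of each collagen in CPM (vertical axis, starting at 0) in the 2 wild-type (WT), 2 heterozygous (HET) and 2 knockout (KO) libraries; points are libraries and lines are group means. KO is lowest in every panel, by a wide gap for Col6a3, Col14a1 and Col15a1 and by a narrow one for Col18a1 (84.3 and 85.5 against 88.1 and 90.9 CPM in WT).

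Nearly the whole group was lower in KO. Against WT, 8 of the 9 genes fell, 0 rose and Col18a1 did not pass the threshold (edgeR, adjusted p under 0.05 by Benjamini-Hochberg). Among all 16061 tested genes 38.0% passed in either direction and 18.9% were lower. The median log2 fold change of the 9 genes was -0.70, against 0.00 over all tested genes. The 9 genes were chosen with earlier results of these data known, so shares set beside them here and below are a description. Of the 9, 4 fell at least 2-fold, a size of decrease that 3.77% of all tested genes showed, and 0 rose 2-fold, as 3.06% did. The libraries of KO and WT did not overlap for any of the 9, as was so for 66.6% of tested genes. In KO against HET all 9 were lower (37.1% of all tested genes passed in either direction, 17.9% lower and 19.1% higher), with a median of -0.73 against 0.01. Of these 4 fell at least 2-fold (3.69% of tested genes) and 0 rose 2-fold (2.61%), and libraries did not overlap for any of the 9 (65.7%). All 3 genotypes were free of overlap for all 9 genes (36.9% of tested genes), 8 were lowest in KO with both calls (8.75%), and 7 passed in all 3 comparisons (12.5%). Scaling libraries by their totals alone moved the split of all genes called in KO against HET. It went from 3070 higher and 2881 lower to 4126 higher and 2256 lower, and the 9 genes were still all lower.

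In these bulk cultures fewer cells of a type and less RNA per cell cannot be told apart. The summed level of 12 fibroblast markers, of which Col1a1, Col1a2 and Col3a1 are themselves collagens, was 41685 and 42271 CPM in WT, 49254 and 48093 in HET, and 27260 and 27112 in KO. Its members did not move as a block, since 8 fell and 4 rose in KO against WT, and the surface receptor gene Pdgfra went from 93.5 and 94.6 CPM in WT to 189 and 177 in KO. Smooth muscle and pericyte markers summed to 3818 and 3877 CPM in WT, to 2804 and 2831 in HET and to 2327 and 2367 in KO, with 6 of 10 lower in KO and 1 higher. In HET against WT 3 were lower and 3 higher. Acta2 made up most of the sum, at 2570 and 2525 CPM in WT, 1801 and 1814 in HET, and 1546 and 1531 in KO. The 14 macrophage markers summed to 11244 and 11455 CPM in WT, 14405 and 14417 in HET, and 13101 and 13204 in KO, with Aif1 at 0 in all libraries and 8 higher and 1 lower in KO. Lyz2 made up most of this sum, at 7300 and 7123 CPM in WT, 8845 in both HET libraries, and 7039 and 7010 in KO. Mrc1 went from 750 and 751 CPM in WT to 1826 and 1821 in KO, and Cx3cr1 from 140 and 139 to 27.2 and 31.4. Adipocyte markers summed to 223 and 224 CPM in WT, 402 and 409 in HET and 528 and 531 in KO. Most of that sum was Lpl, at 150 and 149 CPM in WT and 375 and 377 in KO, while Lep was at 0 and Adipoq at most 2.25 CPM. Against WT, all 8 tested adipocyte markers were higher in KO, and 7 were higher and 0 lower in HET. Among all tested genes 19.2% were higher and 18.9% lower in KO against WT. In HET against WT the shares were 19.2% higher and 19.7% lower. The 9 endothelial markers summed to 34.8 and 34.9 CPM in WT, 29.8 and 27.6 in HET, and 74.3 and 77.5 in KO, with Cldn5 at 0 and Pecam1 and Emcn below 1 CPM in every library. Most of that sum was Vwf, at 19.8 to 22.1 CPM in WT and HET and 53.6 and 56.1 in KO, and Kdr, at 4.65 to 7.50 in WT and HET and 18.4 and 19.0 in KO. Cdh5 went from 6.76 and 6.33 CPM in WT to 0.667 and 1.32 in KO. Schwann and neural markers summed to 214 to 339 CPM and skeletal muscle markers to at most 2.52 CPM. The part of these shifts in the collagen results was not tested.

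All 3 chains of collagen VI fell in KO, and the log2 decrease of the third chain was larger than those of its partners. The promoters of its 3 genes are shown because the chains belong to the same molecule and fell together in KO. They come from RefSeq (GRCm38.p6), which gave windows for 7 of the 9 genes, each running from 250 bases before to 50 bases after an annotated start and written in the direction of transcription. Capitals mark matches on either strand to 5 short motifs. The GC box was searched as GGGCGG, which is bound by Sp factors. The TATA box was searched as TATAAA and the CCAAT box by the letters of its name. The element of TEAD factors, the partners of YAP, was searched as GGAATG. The AP-1 element, bound by Fos and Jun, was searched as TGANTCA. The motifs may overlap.
Col6a1, chr10:76725995-76726294, minus strand: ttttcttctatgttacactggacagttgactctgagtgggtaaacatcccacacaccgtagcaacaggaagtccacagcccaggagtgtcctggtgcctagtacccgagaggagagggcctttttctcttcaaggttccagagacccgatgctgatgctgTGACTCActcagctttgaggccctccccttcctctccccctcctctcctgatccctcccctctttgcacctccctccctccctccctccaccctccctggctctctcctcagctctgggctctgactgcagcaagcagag
Col6a2, chr10:76623355-76623654, minus strand: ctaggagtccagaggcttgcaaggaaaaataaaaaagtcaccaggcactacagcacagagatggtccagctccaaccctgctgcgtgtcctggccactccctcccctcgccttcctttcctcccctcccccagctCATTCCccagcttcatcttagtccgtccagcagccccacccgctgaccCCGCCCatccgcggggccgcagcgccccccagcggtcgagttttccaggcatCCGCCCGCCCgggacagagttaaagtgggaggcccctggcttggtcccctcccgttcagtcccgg
Col6a3, chr1:90843922-90844221, minus strand: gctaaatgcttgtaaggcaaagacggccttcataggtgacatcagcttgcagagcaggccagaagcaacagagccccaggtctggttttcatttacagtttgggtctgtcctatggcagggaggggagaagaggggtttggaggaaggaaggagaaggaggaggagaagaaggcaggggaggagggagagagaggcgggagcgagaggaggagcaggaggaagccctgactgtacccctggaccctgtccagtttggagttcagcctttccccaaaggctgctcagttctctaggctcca
None of the 3 windows held the TATA letters. The Col6a1 window held an AP-1 element 90 bases before the start, which 7.81% of all 32851 promoter windows hold. The Col6a2 window held 3 GC boxes, 67, 15 and 11 bases before the start, and a TEAD element 115 bases before it. GC boxes occur in 35.7% and TEAD elements in 14.7% of all windows. The Col6a3 window held none of the 5 motifs. A second annotated Col6a2 start, whose window overlaps the one shown, is not printed.

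Col6a1 (chromosome 10, 76708792 to 76726168, GRCm38, GENCODE M21) encodes the first chain of collagen VI. It stood at 908 and 945 CPM in WT, 1005 and 1004 in HET, and 688 and 677 in KO. The KO libraries lay below all others and the HET libraries above both WT libraries. The log2 fold change was -0.44 ± 0.02 (SE) in KO against WT (edgeR, adjusted p = 4.88e-20), 0.12 ± 0.02 in HET against WT (adjusted p = 6.44e-05) and -0.56 ± 0.02 in KO against HET (adjusted p = 2.16e-23).

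Col6a2 (chromosome 10, 76595762 to 76623630), the neighbour of Col6a1 on the same strand at a gap of 85.2 kb, encodes the second chain. It stood at 861 and 856 CPM in WT, 821 and 813 in HET, and 591 and 557 in KO. WT was highest and KO lowest, with a small step from WT to HET. Col6a2 fell in KO against WT by 0.58 on the log2 scale (SE 0.02, edgeR, adjusted p = 3.73e-23) and in KO against HET by 0.51 (SE 0.02, adjusted p = 5.67e-21). Its difference between HET and WT was -0.07 ± 0.02 log2 (adjusted p = 0.0185), and this call was lost without WT library 1, HET library 1 or HET library 2 (adjusted p = 0.0881, 0.0696 and 0.0923) and with DESeq2 (adjusted p = 0.0562). Over 13 alternatives its adjusted p ran from 0.000172 to 0.0923.

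Col6a3 (chromosome 1, 90765923 to 90843971) encodes the third chain, the largest collagen VI chain of these genes, whose C-terminal end is cleaved off as endotrophin. Its level was 648 and 661 CPM in WT, 621 and 631 in HET, and 241 and 245 in KO. WT and HET libraries lay close together and KO stood far below both. In KO the mean was 37.1% of WT (log2 fold change -1.43 ± 0.03, SE, edgeR, adjusted p = 2.16e-36) and the log2 fold change against HET was -1.37 ± 0.03 (adjusted p = 1.63e-35). HET and WT differed by -0.06 ± 0.03 log2 (adjusted p = 0.0403), a call that was lost without any single WT or HET library (adjusted p = 0.0575 to 0.271), with RLE size factors, with no filter on low counts and with DESeq2 (adjusted p = 0.0819, 0.0611 and 0.0976). Over 13 alternatives its adjusted p ran from 0.000704 to 0.271.

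The balance of the chains was therefore followed within each library, where library size has no part. For each read of Col6a1 there were 0.948 and 0.905 reads of Col6a2 in WT, 0.816 and 0.810 in HET, and 0.859 and 0.822 in KO. The ratio of Col6a3 to Col6a1 was 0.713 and 0.699 in WT, 0.617 and 0.628 in HET, and 0.350 and 0.362 in KO. Col6a1 and Col6a2 thus kept a similar balance, with HET and KO a little below WT, while Col6a3 lost ground in KO by a gap larger than the spread between libraries. The log2 ratio of Col6a3 to Col6a1 was 0.99 lower in KO than in WT, at -1.49 ± 0.0344 against -0.50 ± 0.0211 (SD, n = 2). Per coding length the Col6a3 to Col6a1 ratio was 0.223 and 0.218 in WT and 0.109 and 0.113 in KO. With 2 libraries per genotype no permutation test of a ratio can pass the threshold, so these ratios are a description. The chains that can replace Col6a3 in some tissues were scarce, with Col6a4 at 0.530 to 1.32 CPM, Col6a5 at 0 to 0.118 CPM and Col6a6 at 0.118 to 0.975 CPM over the 6 libraries.

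**Figure D2:**
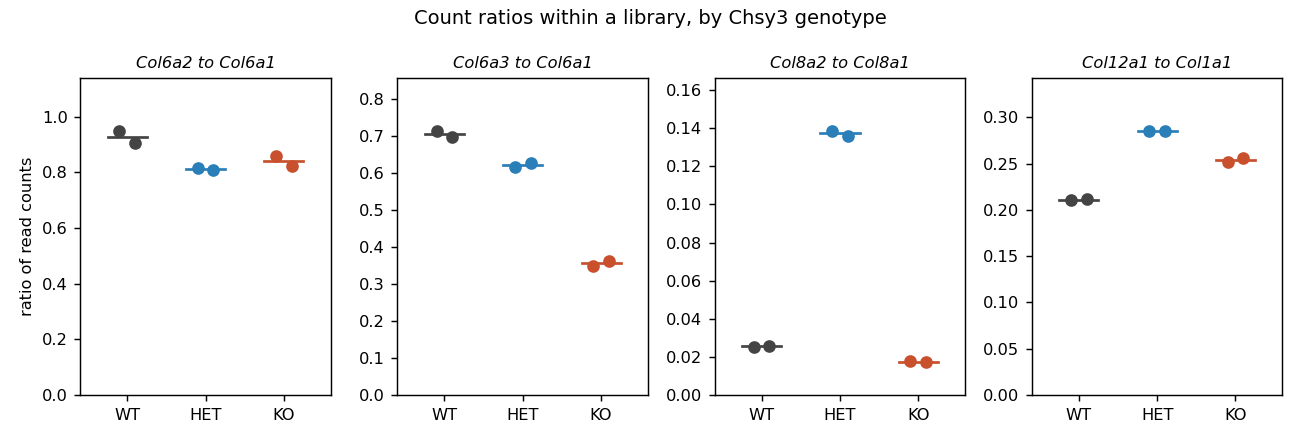
Ratio of read counts of 2 genes within each library (vertical axes, starting at 0) for wild type (WT), heterozygous (HET) and knockout (KO); points are libraries and lines are group means. Col6a2 to Col6a1 stays between 0.810 and 0.948, Col6a3 to Col6a1 drops to 0.350 and 0.362 in KO, Col8a2 to Col8a1 is high in HET only, at 0.138 and 0.136, and Col12a1 to Col1a1 is lowest in WT.

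Col8a1 (chromosome 16, 57624258 to 57754737) encodes a chain of the network-forming collagen VIII, known from vessel walls and the basement membrane of the cornea. Its level in HET lay nearer to KO than to WT. It was at 999 and 1028 CPM in WT, 570 and 558 in HET, and 502 and 504 in KO. Both mutant genotypes lay far below WT and did not overlap with each other. The log2 fold change was -1.01 ± 0.02 (SE) in KO against WT (edgeR, adjusted p = 2.92e-32), -0.85 ± 0.02 in HET against WT (adjusted p = 1.43e-29) and -0.16 ± 0.02 in KO against HET (adjusted p = 3.94e-07).

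The partner chain of collagen VIII moved differently. Col8a2 stood at 25.2 and 26.6 CPM in WT, 79.0 and 75.9 in HET, and 8.89 and 8.65 in KO, so HET was highest and KO lowest with no overlap. It rose in HET against WT (log2 fold change 1.58 ± 0.07, SE, edgeR, adjusted p = 3.50e-22) and fell in KO against WT by 1.56 on the log2 scale (SE 0.09, adjusted p = 3.86e-19). Per read of Col8a1 there were 0.0252 and 0.0258 reads of Col8a2 in WT, 0.138 and 0.136 in HET, and 0.0177 and 0.0172 in KO. The 2 chains of collagen VIII thus moved in opposite directions in HET and in the same direction in KO.

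Col12a1 (chromosome 9, 79598991 to 79718831), the most abundant of the 9 genes in CPM, encodes collagen XII, a FACIT collagen that in mice is needed for bone and muscle structure. It stood at 2201 and 2266 CPM in WT, 3401 and 3324 in HET, and 1373 and 1377 in KO. HET lay above WT and KO below it, with wide gaps. Col12a1 rose in HET against WT (log2 fold change 0.59 ± 0.02, SE, edgeR, adjusted p = 2.62e-27), fell in KO against WT (-0.70 ± 0.02, adjusted p = 6.36e-30), and was lower in KO than in HET by 1.29 log2 (-1.29 ± 0.02, adjusted p = 1.81e-39). The counts pool 3 annotated coding transcripts, so long and short forms of collagen XII cannot be told apart.

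Col14a1 (chromosome 15, 55307750 to 55520803) encodes collagen XIV, the FACIT closest in structure to collagen XII. At 38.7 and 41.0 CPM in WT, 53.3 and 53.7 in HET, and 13.7 and 15.7 in KO, it followed the same order of genotypes as Col12a1, with no overlap. Its decrease in KO against WT was deeper, at -1.43 ± 0.08 log2 (SE, edgeR, adjusted p = 6.71e-19), with the KO mean at 37.0% of WT. It rose in HET against WT by 0.43 ± 0.07 log2 (adjusted p = 6.06e-06) and was lower in KO than in HET by the widest margin of the 9 genes, at -1.86 ± 0.08 log2 (adjusted p = 8.73e-23).

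Col16a1 (chromosome 4, 130047840 to 130099283), which encodes the fibril-associated collagen XVI, showed the same order at smaller steps. It stood at 62.9 and 69.9 CPM in WT, 77.3 and 75.9 in HET, and 46.3 and 46.2 in KO. The WT libraries differed more from each other than the libraries of the other genotypes, and HET lay above them. The log2 fold change was -0.52 ± 0.06 (SE) in KO against WT (edgeR, adjusted p = 9.71e-10) and -0.73 ± 0.06 in KO against HET (adjusted p = 1.21e-13). In HET against WT it was 0.21 ± 0.06 (adjusted p = 0.00392), a call that was lost without WT library 1 (log2 fold change 0.13, adjusted p = 0.161; 13 alternatives gave 0.000722 to 0.161).

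FACIT collagens sit on fibrils of collagen I, so their counts were also set against Col1a1 in the same library. The ratio of Col12a1 to Col1a1 was 0.210 and 0.212 in WT, 0.285 and 0.285 in HET, and 0.252 and 0.256 in KO. Against Col1a1, Col12a1 was thus higher in both mutant genotypes than in WT. Col1a1 itself stood at 10475 and 10712 CPM in WT, 11933 and 11666 in HET, and 5448 and 5380 in KO. The log2 ratio of Col14a1 to Col1a1 was -8.08 and -8.03 in WT, -7.81 and -7.76 in HET, and -8.63 and -8.42 in KO, lowest in KO. Relative to Col1a1, Col6a1 was higher in KO, at 0.126 in both libraries, than in WT, at 0.0867 and 0.0883, or in HET, at 0.0843 and 0.0860.

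Col15a1 (chromosome 4, 47208161 to 47313167) was the rarest of the 9 genes and the one with the lowest KO level relative to WT. It had 112 counts in each WT library, 49 and 80 in HET, and 27 and 28 in KO, or 3.29 and 3.30, 1.70 and 2.52, and 0.819 and 0.821 CPM. The HET libraries lay between the other genotypes and differed widely from each other. In KO the mean was 24.9% of WT (95% interval of the log2 fold change -2.69 to -1.31, edgeR, adjusted p = 5.23e-06). HET and WT did not differ past the threshold, with an estimate of -0.64 log2 and a 95% interval of -1.27 to 0.00 (adjusted p = 0.107). KO against HET was at -1.36 ± 0.35 log2 (adjusted p = 0.00174), a call lost without HET library 2 (-1.05 log2, adjusted p = 0.0566; 13 alternatives gave 0.000938 to 0.0566). An annotated antisense gene overlaps 14 exonic bases of Col15a1, and whether the counting used strand is not stated.

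Col18a1 (chromosome 10, 77052178 to 77166548) lies 326.0 kb from Col6a1 on the same strand. Both of its promoters are shown because the gene has a pair of annotated starts whose reads the count table pools, so a shift between forms of collagen XVIII would not be seen. Capitals mark the same motifs as above.
Col18a1 inner start, chr10:77113656-77113955, minus strand: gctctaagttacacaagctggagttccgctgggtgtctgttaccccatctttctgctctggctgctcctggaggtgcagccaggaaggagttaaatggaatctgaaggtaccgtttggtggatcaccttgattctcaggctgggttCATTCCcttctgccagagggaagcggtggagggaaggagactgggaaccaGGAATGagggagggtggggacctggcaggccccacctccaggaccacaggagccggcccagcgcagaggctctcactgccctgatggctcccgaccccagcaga
Col18a1 outer start, chr10:77166481-77166780, minus strand: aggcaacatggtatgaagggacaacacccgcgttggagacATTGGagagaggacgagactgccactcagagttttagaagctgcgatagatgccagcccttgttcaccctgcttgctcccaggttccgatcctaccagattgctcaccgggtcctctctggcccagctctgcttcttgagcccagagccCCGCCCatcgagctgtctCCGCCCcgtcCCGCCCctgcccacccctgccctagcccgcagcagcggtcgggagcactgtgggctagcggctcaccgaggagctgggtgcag
The inner window held 2 TEAD elements, 104 and 54 bases before the start, and no GC box. The outer window held 3 GC boxes, between 61 and 33 bases before the start, and a CCAAT box 210 bases before it, a motif that 37.4% of all windows hold.

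Col18a1 was the 1 gene of the 9 that did not pass the threshold in KO against WT. It stood at 88.1 and 90.9 CPM in WT, 127 and 114 in HET, and 84.3 and 85.5 in KO. The KO libraries lay just below WT, and the HET libraries lay above both and differed most from each other. The log2 fold change in KO against WT was -0.08 with a 95% interval of -0.18 to 0.02 (edgeR, adjusted p = 0.244), so a decrease of the size seen for Col6a1 lies outside the interval. Col18a1 rose in HET against WT (0.43 ± 0.05 log2, SE, adjusted p = 1.05e-09) and was lower in KO than in HET (-0.51 ± 0.05, adjusted p = 1.65e-11). Per read of its relative Col15a1 there were 26.8 and 27.6 reads of Col18a1 in WT, 74.8 and 45.4 in HET, and 103 and 104 in KO.

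**Figure D3:**
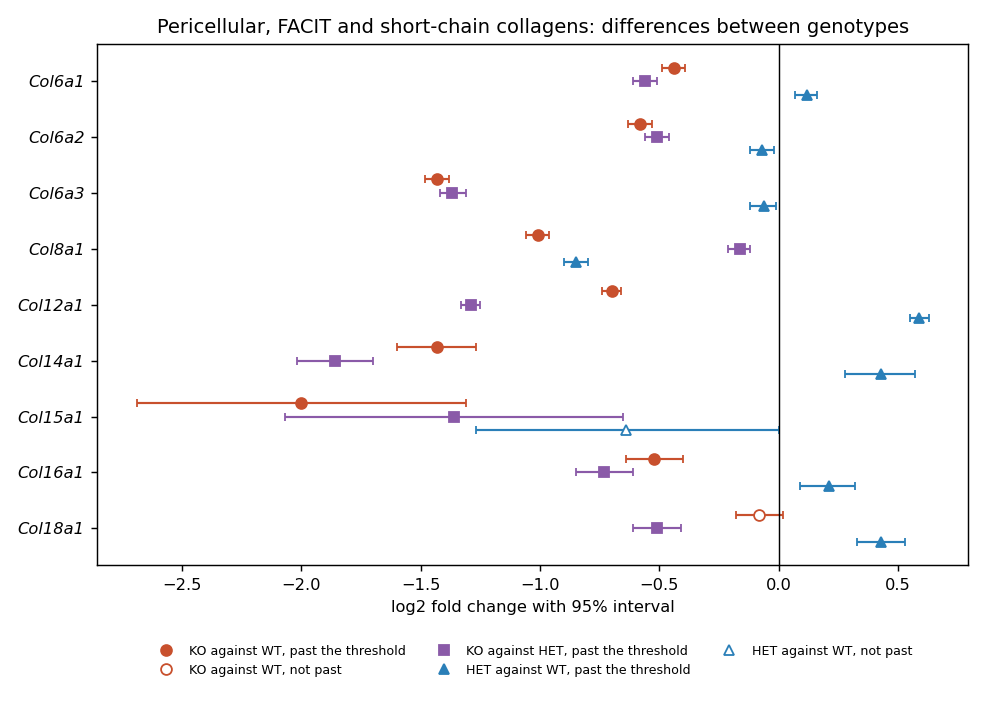
Log2 fold changes (horizontal axis) of the 9 collagens for knockout (KO) against wild type (WT), KO against heterozygous (HET) and HET against WT, with 95% intervals from the edgeR fit; filled symbols passed the threshold and open symbols did not. The points of both KO comparisons lie left of 0 for all 9 genes, with the interval of Col18a1 against WT crossing it, while HET against WT falls on both sides, from -0.85 for Col8a1 to 0.59 for Col12a1.

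The group split in HET. Against WT, 5 of the 9 genes rose (Col6a1, Col12a1, Col14a1, Col16a1 and Col18a1), 3 were lower (Col6a2, Col6a3 and Col8a1) and Col15a1 did not pass the threshold. Among all tested genes 38.9% passed in either direction, 19.2% higher and 19.7% lower. Of the 9, 0 changed 2-fold, against 3.07% of tested genes at least 2-fold lower and 4.04% at least 2-fold higher, and the median was 0.12 log2 against 0.00 over all genes. Of the 3 lower genes, Col8a1 alone kept its call under all 13 alternatives, with log2 fold changes of -0.89 to -0.83. Libraries of HET and WT did not overlap for any of the 9, against 67.0% of tested genes. In 4 genes (Col6a1, Col12a1, Col14a1 and Col16a1) KO was lower and HET higher than WT, a pattern that 1.89% of tested genes showed. In 3 genes (Col6a2, Col6a3 and Col8a1) both KO and HET were lower than WT, against 9.92% of tested genes. The comparisons of KO and of HET with WT share the WT libraries.

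**Figure D4:**
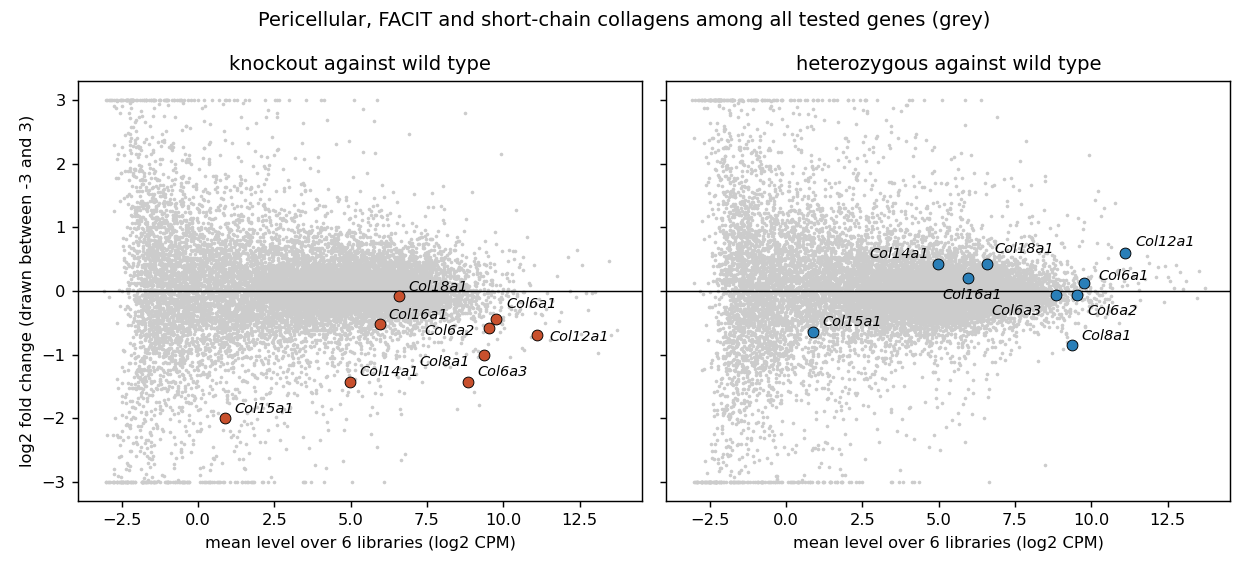
Log2 fold change (vertical axis; genes beyond -3 or 3 are drawn at that limit) against mean level over the 6 libraries in log2 CPM (horizontal axis) for 16061 tested genes in grey and the 9 collagens in colour. In knockout against wild type (left) the 9 genes lie below 0, with Col15a1 at percentile 1.84 and Col18a1 at percentile 40.8 of all log2 fold changes, and in heterozygous against wild type (right) they lie between percentile 6.30 for Col8a1 and 88.4 for Col12a1.

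The profiles of 8 of the genes over the 6 libraries were compared with those of 9642 or more other genes of moderate or high level, by the distance between log2 CPM profiles centred on their means. For Col12a1 the nearest profile was that of Col11a1, a fibrillar collagen of cartilage, at a distance of 0.05, followed by Cdh11, a mesenchymal cadherin, at 0.07. Col11a1 stood at 318 and 336 CPM in WT, 495 and 488 in HET, and 198 and 196 in KO. For Col15a1 the nearest were Col4a1, a chain of basement membrane collagen IV, and Dnm3os, at 0.47 each. For Col6a3 the nearest were Pdzrn3 and Adamts6, a metalloprotease of the ADAMTS family, at 0.20 each, and for Col8a1 the amino acid transporter Slc7a5 (0.10) came after the zinc transporter Slc39a10 (0.07). The nearest to Col6a1 was the Hedgehog signal transducer Smo (0.06), to Col6a2 the histone demethylase Kdm6b (0.06), to Col14a1 Kif26b (0.22) and to Col16a1 Copz2 (0.06). Among the 9 genes themselves, Col6a1 lay closest to Col16a1 (0.18) and then to Col6a2 (0.21), and Col14a1 and Col6a3 lay 0.58 apart. By rank among 9642 genes, Col16a1 and Col6a2 were only the 75th and 109th nearest to Col6a1. Col6a3 was the 8th nearest to Col14a1, and Col14a1 the 40th nearest to Col6a3. All distances rest on the same 6 libraries and 3 genotypes.

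Other collagens also leaned lower in KO. Of 35 further collagen genes listed, 25 were tested. In KO against WT 13 fell, 5 rose and 7 did not pass, with a median of -0.38 log2. Among all tested genes 18.9% were lower and 19.2% higher in that comparison. Comparing HET with WT, 13 were higher and 7 lower (median 0.36), and in KO against HET 14 were lower and 4 higher (median -0.82). Over all tested genes 19.2% were higher and 19.7% lower in HET against WT, and 17.9% lower and 19.1% higher in KO against HET. Col4a1 and Col5a1 fell in KO against WT (-1.80 and -0.93 log2). Col28a1, a collagen with the von Willebrand domains typical of collagen VI, rose instead, from 6.20 and 6.18 CPM in WT to 9.71 and 10.4 in KO (0.70 log2, edgeR, adjusted p = 1.34e-05) and to 34.2 and 31.1 in HET (2.40 log2, adjusted p = 7.49e-21). Col10a1, a short-chain collagen of hypertrophic cartilage, rose in KO as well, from 0.823 and 1.03 CPM to 3.67 and 5.66 (2.33 log2, adjusted p = 4.19e-08).

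Genes that make and crosslink collagen were lower in KO against WT in 18 of 28 tested members of the list and higher in 4. All tested genes gave 18.9% lower and 19.2% higher, and the medians were -0.20 log2 for the list against 0.00 over all genes. Plod2, a lysyl hydroxylase, fell by 1.15 on the log2 scale, P3h1, a prolyl hydroxylase, by 0.90, Serpinh1, the collagen chaperone of the endoplasmic reticulum, by 0.59, and the lysyl oxidase gene Lox by 0.30. Between HET and WT, 12 were higher and 10 lower (median 0.01), with Lox at 0.40 and Serpinh1 at -0.20 log2. In KO against HET 19 were lower and 4 higher (median -0.33). All tested genes gave 17.9% lower and 19.1% higher there, and 19.7% lower and 19.2% higher in HET against WT.

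Receptors of these collagens were lower in KO against WT in 11 of 17 and higher in 3 (median -0.36 log2). Of all tested genes 18.9% were lower and 19.2% higher. Cspg4, which encodes NG2, a receptor of collagen VI, stood at 205 and 204 CPM in WT, 123 and 116 in HET, and 88.1 and 92.0 in KO. It fell in KO against WT by 1.18 on the log2 scale and in HET against WT by 0.78 (SE 0.04 each, edgeR, adjusted p = 3.45e-26 and 6.25e-20). Itga11, a collagen-binding integrin subunit, fell in KO (-0.73 log2) and rose in HET (0.29). The fibronectin receptor subunit Itga5 and the common subunit Itgb1 fell in both, by 0.55 and 0.34 log2 in KO and by 0.50 and 0.41 log2 in HET. Among receptors in HET, 5 were higher and 7 lower (median -0.10), and in KO against HET 3 and 10 (median -0.35). Over all tested genes the shares were 19.2% and 19.7% in HET against WT, and 19.1% and 17.9% in KO against HET.

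Matrix partners of the 9 collagens went both ways in KO against WT, with 16 lower and 8 higher of 27 tested (median -0.29 log2). The shares over all tested genes were 18.9% lower and 19.2% higher. Fn1, which encodes fibronectin, and Fbln2, which encodes fibulin 2, fell by 0.62 and 0.77 on the log2 scale, whereas Comp, a pentameric protein that binds collagens of fibrils, rose by 1.55 and the leucine-rich proteoglycan gene Prelp by 0.63. Among partners in HET, 16 were higher and 6 lower (median 0.26), with Comp at 3.14 log2, and in KO against HET 5 were higher and 21 lower (median -0.62). Proteases that free endostatin or turn over pericellular matrix were higher in KO against WT in 7 of 13 and lower in 4 (median 0.11). The cathepsin genes Ctsb and Ctsl rose by 0.65 and 0.40 log2, and Mmp13 and Mmp2 by 1.28 and 0.66. Among proteases in HET, 8 were higher and 4 lower (median 0.39), and in KO against HET 3 and 8 (median -0.17). For partners and proteases alike, all tested genes gave 19.2% higher and 19.7% lower in HET against WT. In KO against HET they gave 19.1% higher and 17.9% lower.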

How the data were processed

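The deposited table holds the authors' read counts per gene symbol in 6 columns. All values are whole and the column totals differ, so they were taken as raw. Per the submitters' processing notes the build was GRCm38 and HISAT2 2.0.4 was used. The sources used here name no counting tool, annotation or strand setting. Columns were assigned by sample title. Counts were tested with edgeR 4.0.16 (R 4.3.3), with TMM factors, the default filter by group (16061 genes kept) and a robust quasi-likelihood fit of all 6 libraries with 3 residual degrees of freedom. That fit shares information on spread across all tested genes, so a p-value does not rest on the spread of its own gene alone. Each pair of genotypes was compared by a two-sided F test with Benjamini-Hochberg adjustment over all tested genes and a threshold of 0.05. The procedure was tested on simulated data. Fold changes carry SE and 95% intervals, and CPM uses TMM-scaled library sizes.

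Profiles used log2 CPM with a prior count of 2 for named genes at 3 log2 CPM or more on average; the nearest profile of Col18a1 is not reported here. Gene positions and lengths come from GENCODE M21 (GRCm38). Genes named beside the 9 collagens were Chsy3, other collagens, the 4 genes with the smallest p in KO against WT of each list, the nearest profiles and cell type markers. The 9 genes and the lists were chosen with earlier results of these data known. Alternatives were RLE factors, library totals, DESeq2 1.42.0, no filter or a stricter one, only the 4 libraries compared, a replicate block, and leaving out each library.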

Additional observations from a re-analysis of the deposited data

How the results depend on the processing

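Of 351 log2 fold changes of the 9 genes under 13 alternatives in 3 comparisons, 338 kept their direction and side of the threshold, 13 kept their direction and lost their call, and 0 changed sign. In KO against WT, 8 genes were called lower under every alternative. In HET against WT the number called was 8, and it ranged from 5 to 8 when a library was left out, with 1 to 3 lower. DESeq2 called 1 lower in that comparison, against 3 in edgeR; the cause was not tested. In KO against HET the number was 9, or 8 without HET library 2. The counts of all genes called stayed within 1.5 times under every alternative. Numbers of replicates share only a label (correlations of deviations -0.02 to 0.02), and with the replicate block 8, 8 and 9 of the 9 genes were called in KO against WT, HET against WT and KO against HET, with no call of these genes changed. The log2 ratio of Col6a3 to Col6a1 in KO minus WT is the same per coding length, at -0.99, and without a WT or KO library, an alternative chosen after the data were seen, it ranged from -1.01 to -0.96. Depth limits Col15a1, with 27 to 112 counts per library.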
